A study of Mus musculus with 12 samples.

Results

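The genes described here encode the core of polyamine metabolism: Odc1, Azin1, Oaz1, Oaz2, Srm, Sms, Amd1 and Sat1. They were found by gene symbol in a table of 11022 genes, where 6 of the 8 had a row. Oaz1 and Amd1 had no row under these symbols and were not analysed here, and a missing row does not show that a gene was not expressed. RNA sequencing had been done on 12 cultures of mouse cytotoxic T lymphocytes (CTL), which are effector CD8+ T cells, in 4 groups of 3 cultures. All came from adult female P14 mice, whose transgenic T cell receptor (TCR) recognises the gp33-41 peptide of LCMV glycoprotein, and all were activated with that peptide in IL-2 and IL-12, expanded in IL-2 and kept in IL-2 at 20 ng per mL during the experiment. The unstimulated group received no further peptide. The TCR group received peptide again at 100 ng per mL for 4 h. The other groups received the same peptide for the same time together with 10 µM IC87114, an inhibitor of PI3K p110δ (PI3Kdi), or 2 µM PD184252, an inhibitor of the kinase MEK (MEKi). Each inhibitor was used at 1 dose and 1 time, DMSO served as vehicle, and no group received an inhibitor without peptide.

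Polyamines are small, positively charged molecules that bind nucleic acids and are needed by dividing cells. Ornithine decarboxylase (Odc1) makes putrescine from ornithine, spermidine synthase (Srm) turns putrescine into spermidine, and spermine synthase (Sms) turns spermidine into spermine. Amd1 supplies the aminopropyl donor for the synthases. Antizymes (Oaz1, Oaz2) bind ornithine decarboxylase and send it to the proteasome, while the antizyme inhibitor Azin1 binds antizyme in its place. The acetyltransferase Sat1 marks spermidine and spermine for export or oxidation. In T cells, Odc1 is known as a target of the transcription factor MYC, and antizyme and Sat1 are both regulated strongly at the level of translation and protein turnover, which mRNA values do not show.

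All positions are on mm10, the build that the submitters' processing notes name. Odc1 lies on chr12:17544794-17551505 on the plus strand and Srm on chr4:148591503-148594993 on the plus strand. Sms (chrX:157443855-157492287) and Sat1 (chrX:155213132-155216449) both lie on the minus strand of the X chromosome. Azin1 lies on chr15:38487427-38519266 on the minus strand and Oaz2 on chr9:65668001-65690300 on the plus strand.

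RefSeq promoter windows of GRCm38.p6, from 250 bases before to 50 bases after the transcription start, were at hand for Odc1, Oaz2, Sms (2 starts) and Sat1 among the measured genes. Srm and Azin1 had no window. The 250 bases upstream of the start are shown for the Sms start that held a motif and for Sat1, the member with the largest change after TCR stimulation. Capitals mark CACGTG, the E-box bound by MYC with MAX. The sequences run 5′ to 3′ along the gene.
Sms, chrX:157492288-157492537, minus strand: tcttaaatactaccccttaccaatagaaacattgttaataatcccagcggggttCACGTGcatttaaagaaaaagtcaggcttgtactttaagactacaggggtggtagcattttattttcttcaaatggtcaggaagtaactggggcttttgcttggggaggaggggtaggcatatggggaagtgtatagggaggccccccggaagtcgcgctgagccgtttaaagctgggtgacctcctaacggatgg
Sat1, chrX:155216450-155216699, minus strand: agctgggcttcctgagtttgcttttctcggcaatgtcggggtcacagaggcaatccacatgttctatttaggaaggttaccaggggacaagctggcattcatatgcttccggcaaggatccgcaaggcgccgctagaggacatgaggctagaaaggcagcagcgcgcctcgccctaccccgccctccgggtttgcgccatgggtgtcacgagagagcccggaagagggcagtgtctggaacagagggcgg

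Both strands were searched for CACGTG and for TGANTCA, the motif of AP-1, a factor downstream of ERK. Both motifs read the same on either strand and cannot overlap by more than their end bases. CACGTG occurred once, in the Sms window shown, where it began at position -196 from the start. It was present in 7.15% of all 32851 promoter windows of this length and in 10.24% of the 10616 windows of genes in the table. TGANTCA occurred in none of the members' windows, but in 7.81% of all windows and in 4.96% of those of genes in the table. The absence of a match says only that these letters are not in the window. The whole 300-base window of Odc1 had a GC content of 78%, that of Sat1 60.3% and that of the Sms start shown 50.3%, against a median of 52.7% over all windows.

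Values are FPKM, in which fragments are divided by gene length and library size. The length was that of all annotated exons of a gene, so comparisons of level between genes depend partly on the annotation. A log2 change is a difference of group means of log2(FPKM + 0.1), with the SE from limma, and a gene passed the test at a Benjamini-Hochberg adjusted p under 0.05 over all 11022 genes. The table holds no read totals, so depth is unknown. Replicates correlated across genes within each group at r = 0.993 to 0.995, where genes are not independent replicates. All 7 CTL markers listed (Cd8a, Cd8b1, Cd3e, Cd3d, Cd3g, Gzmb and Prf1) had a row, with summed FPKM of 10107 to 11239 in unstimulated CTL, 15438 to 16417 after TCR stimulation, 14557 to 15374 with PI3Kdi and 14595 to 14689 with MEKi. Most of this sum was Gzmb, at 8279 to 9460 FPKM in unstimulated CTL and 12650 to 13580 FPKM with TCR, and the markers did not all move alike. Cd8a (212.7 to 228.7 against 352.8 to 366.1 FPKM) and Prf1 were higher in every TCR culture than in any unstimulated one, and Cd3e (121.5 to 131.5 against 106.4 to 114.2 FPKM) and Cd3g were lower. None of the 6 B cell, 5 dendritic cell or 5 erythroid markers had a row. Of the 7 myeloid markers only Cd68 did, between 4.88 and 8.44 FPKM, and of the 3 CD4 T cell markers Cd4 and Zbtb7b did, with a sum of 5.27 to 11.25 FPKM. Cd4 stood at 0.44 to 0.99 FPKM in unstimulated CTL, 2.54 to 2.87 with TCR, 1.96 to 3.65 with PI3Kdi and 0.28 to 0.66 with MEKi. Zbtb7b stood at 6.58 to 8.42, 5.05 to 5.61, 3.31 to 4.58 and 9.38 to 10.97 FPKM in the same order, so that between TCR and MEKi these markers moved in opposite directions. The NK marker Klrb1c, 1 of 2 listed, stood at 4.58 to 6.23 FPKM in unstimulated CTL and at 1.31 to 2.43 FPKM in the stimulated groups, and the part of these markers in the results was not tested.

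The first comparison asked how CTL change their mRNA when the TCR is engaged again. The genes that make polyamines and the gene that marks them for removal rose together. Odc1 rose 1.81-fold, Srm 1.96-fold, Sms 1.69-fold and Sat1 4.33-fold, whereas Azin1 was slightly lower and Oaz2 did not pass the test. Of the 6 members, 4 were higher at an adjusted p under 0.05, a result that 33.6% of all genes gave, and 1 was lower, as were 34.9% of all genes. Sat1 alone also changed by more than 2-fold, as 20.0% of all genes did. The median log2 change was 0.81 over the 6 members and -0.01 over all genes.

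Odc1 was abundant in every culture. It stood at 242, 229.8 and 244 FPKM in unstimulated replicates 1, 2 and 3 (mean 239 ± 7.89, SD, n = 3) and at 449, 428 and 421 FPKM after TCR stimulation (mean 433 ± 14.3, SD, n = 3). With PI3Kdi the values were 355, 336 and 327 FPKM (mean 339 ± 14.2, SD, n = 3), and with MEKi they were 353, 367 and 351 FPKM (mean 357 ± 8.82, SD, n = 3). Every stimulated culture lay above every unstimulated culture, and every inhibitor culture lay between those groups, with the inhibitor groups overlapping each other. The log2 change on TCR stimulation was 0.86 (SE 0.05, limma adjusted p = 1.26e-09), a rise that 10.95% of all genes matched or exceeded. In bulk cultures a change in the share of responding cells and a change in RNA per cell cannot be told apart. Of the 100-base stretches of Odc1 transcripts, 10.1% also occur in other annotated genes, among them Gm17709 and Gm7993, so reads may have been split between them.

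Srm, which makes spermidine, was also lowest in unstimulated CTL and highest with TCR. It stood at 153, 148 and 152 FPKM in unstimulated CTL (mean 151 ± 2.54, SD, n = 3) and at 328, 279 and 284 FPKM after TCR stimulation (mean 297 ± 26.9, SD, n = 3). With PI3Kdi it stood at 217, 193 and 199 FPKM (mean 203 ± 12.8, SD, n = 3) and with MEKi at 237, 249.9 and 234 FPKM (mean 240.4 ± 8.39, SD, n = 3). The 4 groups did not overlap, and the order from low to high was unstimulated, PI3Kdi, MEKi and TCR. The log2 change on TCR stimulation was 0.97 (SE 0.06, limma adjusted p = 4.59e-09), just under the 2-fold threshold. TCR replicate 1 was the highest culture and replicate 2 the lowest of that group. Without TCR replicate 2, the log2 change of Srm was 1.01 and the number of members past both thresholds became 2. No 100-base stretch of Srm is shared with another annotated gene.

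Sms, which makes spermine, was expressed at a lower level. It stood at 23.8, 23.9 and 25.1 FPKM in unstimulated CTL (mean 24.3 ± 0.704, SD, n = 3) and at 39.4, 42.2 and 41.8 FPKM after TCR stimulation (mean 41.1 ± 1.52, SD, n = 3). With PI3Kdi it stood at 35.0, 35.5 and 34.1 FPKM (mean 34.9 ± 0.72, SD, n = 3) and with MEKi at 39.5, 40.5 and 42.2 FPKM (mean 40.7 ± 1.35, SD, n = 3). The MEKi cultures overlapped the TCR cultures, and the PI3Kdi cultures lay between these and the unstimulated cultures without overlap. The log2 change on TCR stimulation was 0.76 (SE 0.05, limma adjusted p = 6.4e-09). Of its 100-base stretches 16.4% also occur in Sms-ps and Gm6292, so its reads may be split.

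Sat1, which starts polyamine removal, had the largest change of the members. It stood at 21.0, 19.35 and 28.0 FPKM in unstimulated CTL (mean 22.8 ± 4.61, SD, n = 3) and at 98.8, 96.9 and 97.3 FPKM after TCR stimulation (mean 97.7 ± 1.02, SD, n = 3). With PI3Kdi it stood at 120.1, 109 and 109 FPKM (mean 112 ± 6.55, SD, n = 3) and with MEKi at 93.4, 83.1 and 94.1 FPKM (mean 90.2 ± 6.13, SD, n = 3). Unstimulated replicate 3 was the highest of its group, and all 9 stimulated cultures lay far above it. The PI3Kdi cultures were the highest and the MEKi cultures the lowest of the stimulated ones, without overlap. The log2 change on TCR stimulation was 2.11 (SE 0.10, limma adjusted p = 1.18e-10), which 3.32% of all genes matched or exceeded. Only 0.126% of its 100-base stretches occur in another annotated gene.

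**Figure D1:**
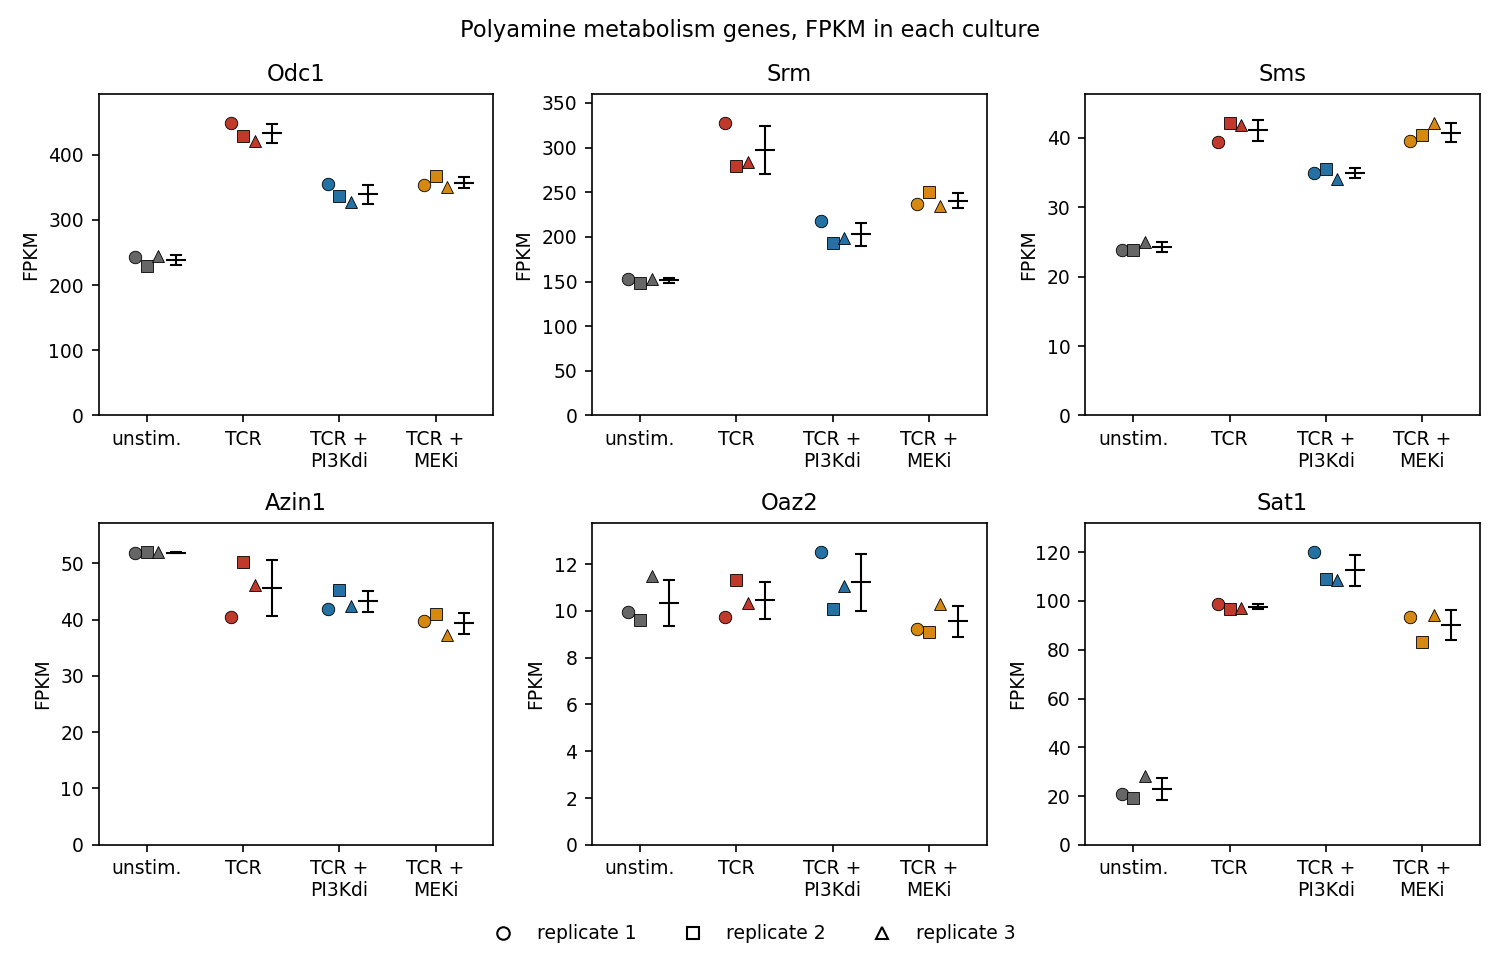
FPKM (vertical axis, from 0) of the 6 measured polyamine genes in each of 12 cultures, by group; symbols give the replicate number and the bar beside each group its mean ± SD (n = 3). Odc1, Srm, Sms and Sat1 stand higher in every stimulated culture than in any unstimulated culture (Sat1 at 83.1 to 120.1 against 19.35 to 28.0), while the Oaz2 groups overlap.

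On the deposited scale, the measured regulators of ornithine decarboxylase, Azin1 and Oaz2, moved little, and Oaz1 had no row. Once libraries were rescaled to a common sum, Oaz2 was lower with TCR, as given below. That rescaling moved the median gene from -0.01 to -0.41 for TCR against unstimulated, and the fall of Azin1 was larger on it. Azin1, the antizyme inhibitor, stood at 51.8, 52.0 and 51.9 FPKM in unstimulated CTL (mean 51.9 ± 0.106, SD, n = 3) and at 40.4, 50.3 and 46.1 FPKM after TCR stimulation (mean 45.6 ± 4.95, SD, n = 3). With PI3Kdi it stood at 41.9, 45.3 and 42.5 FPKM (mean 43.2 ± 1.82, SD, n = 3) and with MEKi at 39.7, 41.0 and 37.3 FPKM (mean 39.3 ± 1.85, SD, n = 3). All 9 stimulated cultures lay below all 3 unstimulated cultures, with TCR replicate 1 the lowest of its group and TCR replicate 2 the closest to the unstimulated level. The log2 change on TCR stimulation was -0.19 (SE 0.07, limma adjusted p = 0.0247). It was -0.11 without TCR replicate 1 (adjusted p = 0.138), and the call was also lost without unstimulated replicate 1 (adjusted p = 0.0525), 2 (0.0551) or 3 (0.0503). Exons of Azin1 share 358 bases with Gm49077 on the opposite strand. The libraries were made with a stranded mRNA kit, but the sources used here do not state whether strand was used in counting.

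Oaz2, the antizyme that could be measured, stood at 9.95, 9.62 and 11.5 FPKM in unstimulated CTL (mean 10.4 ± 0.992, SD, n = 3) and at 9.73, 11.3 and 10.3 FPKM after TCR stimulation (mean 10.5 ± 0.797, SD, n = 3). With PI3Kdi it stood at 12.5, 10.1 and 11.1 FPKM (mean 11.2 ± 1.23, SD, n = 3) and with MEKi at 9.22, 9.12 and 10.3 FPKM (mean 9.55 ± 0.666, SD, n = 3). All 4 groups overlapped. The log2 change on TCR stimulation was 0.02 (SE 0.10, limma adjusted p = 0.889). A small share, 1.77%, of its 100-base stretches also occurs in the pseudogene Oaz2-ps. By FPKM, Odc1 was the most and Oaz2 the least abundant member in every group. In unstimulated CTL the order was Odc1, Srm, Azin1, Sms, Sat1 and Oaz2, with Sms and Sat1 overlapping. After TCR stimulation Sat1 ranked below Odc1 and Srm but above Azin1 and Sms, which overlapped each other.

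The second comparison asked what PI3K p110δ contributes to the response. On the deposited scale, all 3 enzymes of synthesis were lower with PI3Kdi than with TCR stimulation alone, and Sat1 was not. Srm fell by 0.55 on the log2 scale (SE 0.06, limma adjusted p = 3.74e-05), a 1.46-fold lower level. Odc1 fell by 0.35 (SE 0.05, limma adjusted p = 0.000203) and Sms by 0.24 (SE 0.05, limma adjusted p = 0.00414). Of the 6 members 3 were lower, as were 12.8% of all genes, and 0 were higher, as were 12.7% of all genes. In limma 0 members passed the 2-fold threshold, as 1.88% of all genes did. A fall as large as that of Srm or larger was found in 4.54% of all genes.

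The other 3 members gave log2 differences from TCR of -0.07 for Azin1 (SE 0.07, limma adjusted p = 0.491), 0.10 for Oaz2 (SE 0.10, adjusted p = 0.502; on the TPM scale 0.28, adjusted p = 0.0375) and 0.20 for Sat1 (SE 0.10, adjusted p = 0.164). The Sat1 cultures of the PI3Kdi and TCR groups did not overlap, with 108.54 FPKM the lowest PI3Kdi value and 98.8 FPKM the highest TCR value. Sat1 passed the test when the 2 groups were fitted alone (limma adjusted p = 0.0364), after quantile normalisation (0.0233), on the TPM scale (0.00395) and without unstimulated replicate 3 (0.0258). Despite the fall, PI3Kdi cultures kept higher Odc1, Srm and Sms than unstimulated cultures, with log2 differences of 0.51, 0.42 and 0.52 (SE 0.05, 0.06 and 0.05; limma adjusted p = 6.9e-07, 4.89e-05 and 5.95e-07). Sat1 was 4.98-fold higher than in unstimulated cultures (log2 2.32, SE 0.10, adjusted p = 6.22e-11) and Azin1 lower by -0.26 log2 (SE 0.07, adjusted p = 0.00453). In that comparison 4 members were higher, as were 31.7% of all genes, 1 was lower, as were 30.8%, and 1 passed the 2-fold threshold, as did 14.6%.

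The third comparison asked the same of MEK, which activates ERK1/2, against the same 3 TCR cultures. On the deposited scale MEKi lowered Odc1 and Srm but not Sms. Odc1 fell by 0.28 (SE 0.05, limma adjusted p = 0.000745) and Srm by 0.30 (SE 0.06, adjusted p = 0.00224), while Sms differed by -0.01 (SE 0.05, adjusted p = 0.858). Azin1 fell by 0.21 (SE 0.07, adjusted p = 0.0311), with 40.4 FPKM in TCR replicate 1 inside the range of the MEKi cultures, and 4 of the 12 fits that left out a culture lost this call. The 4 were those without TCR replicate 2 (log2 difference -0.13, adjusted p = 0.146), TCR replicate 3 (-0.20, 0.0806), MEKi replicate 1 (-0.22, 0.0613) or MEKi replicate 3 (-0.17, 0.122). The call was also lost after quantile normalisation (-0.14, limma adjusted p = 0.142), with the compared groups alone (adjusted p = 0.0611) and without the trend (0.0618). Sat1 differed by -0.12 (SE 0.10, adjusted p = 0.401) and Oaz2 by -0.13 (SE 0.10, adjusted p = 0.329). Of the 6 members 3 were lower, as were 18.2% of all genes, and 0 were higher, as were 18.9%. In limma 0 members passed the 2-fold threshold, as 3.49% of all genes did.

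The fall with MEKi depended on how libraries were scaled. The summed FPKM of a library ran from 620715 to 666922 with TCR, from 549897 to 585849 with PI3Kdi, from 524343 to 539350 with MEKi and from 470420 to 495945 in unstimulated CTL. Rescaling each library to a common sum, the TPM scale, moved the median gene to -0.41 for TCR against unstimulated, 0.19 for PI3Kdi against TCR and 0.26 for MEKi against TCR. On that scale Odc1 differed by -0.02 (limma adjusted p = 0.773) and Srm by -0.04 (adjusted p = 0.522) between MEKi and TCR, and after quantile normalisation by -0.08 (adjusted p = 0.219) and -0.12 (adjusted p = 0.0907). Sms was then higher with MEKi by 0.25 on the TPM scale (adjusted p = 0.00367), and Azin1 changed sign (0.05, adjusted p = 0.615). Between PI3Kdi and TCR, Srm (-0.36 and -0.38) and Odc1 (-0.17 and -0.16) stayed lower after rescaling to TPM and after quantile normalisation, each with an adjusted p under 0.05, but Sms lost its call on the TPM scale (-0.06, adjusted p = 0.497). The rises of Odc1, Srm, Sms and Sat1 with TCR passed the test under all 3 scalings, with Odc1 at 0.44 and Sat1 at 1.70 on the TPM scale. Oaz2 was lower after TCR stimulation on that scale (-0.39, adjusted p = 0.00203). Because the rescaling shifts every gene of a library alike, differences between genes stayed as they were.

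**Figure D2:**
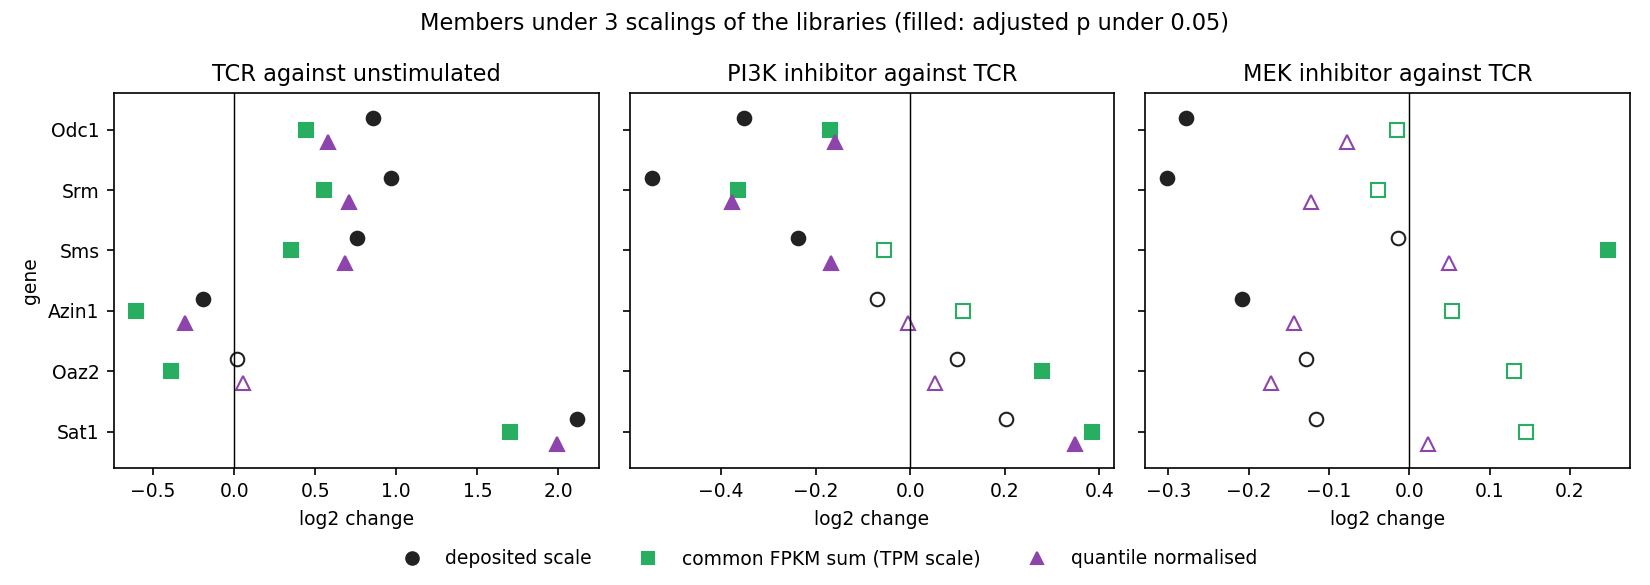
log2 change (horizontal axis) of the 6 members in 3 comparisons on the deposited scale, the TPM scale and after quantile normalisation; filled symbols have an adjusted p under 0.05. Odc1 and Srm are filled under all 3 scalings for TCR and for PI3Kdi, but for MEKi against TCR only on the deposited scale, at -0.28 and -0.30.

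MEKi cultures also stayed above unstimulated cultures for the 4 genes that rose. Sat1 was 3.99-fold higher (log2 2.00, SE 0.10, limma adjusted p = 3.62e-10), Sms differed by 0.74 (SE 0.05, adjusted p = 1.21e-08), Srm by 0.67 (SE 0.06, adjusted p = 4.57e-07) and Odc1 by 0.58 (SE 0.05, adjusted p = 1.64e-07). Azin1 was lower by -0.40 (SE 0.07, adjusted p = 0.000181) and Oaz2 differed by -0.11 (SE 0.10, adjusted p = 0.344). Thus 4 members were higher, as were 28.9% of all genes, 1 was lower, as were 30.7%, and 1 passed the 2-fold threshold, as did 13.4%.

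Whether the inhibitors differed from each other was tested directly, MEKi against PI3Kdi. Their effects share 1 set of TCR cultures, so this contrast is also the difference between the effects. The spermidine and spermine synthases were higher with MEKi, Srm by 0.25 (SE 0.06, limma adjusted p = 0.0102) and Sms by 0.22 (SE 0.05, adjusted p = 0.00505). Sat1 was lower with MEKi by -0.32 (SE 0.10, adjusted p = 0.0298), and this call was lost without PI3Kdi replicate 1 (-0.27, adjusted p = 0.0937), PI3Kdi replicate 2 (-0.34, 0.0508) or MEKi replicate 2 (-0.26, 0.115). It was also lost on the TPM scale (-0.24, limma adjusted p = 0.0562) and without the trend (adjusted p = 0.07). Odc1 differed by 0.07 (SE 0.05, limma adjusted p = 0.298; on the TPM scale 0.15, adjusted p = 0.0131), Azin1 by -0.14 (SE 0.07, adjusted p = 0.16) and Oaz2 by -0.23 (SE 0.10, adjusted p = 0.0992). Of the 6 members 2 were higher, as were 14.5% of all genes, and 1 was lower, as were 14.4%. In limma 0 members passed the 2-fold threshold, as 3.09% of all genes did.

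**Figure D3:**
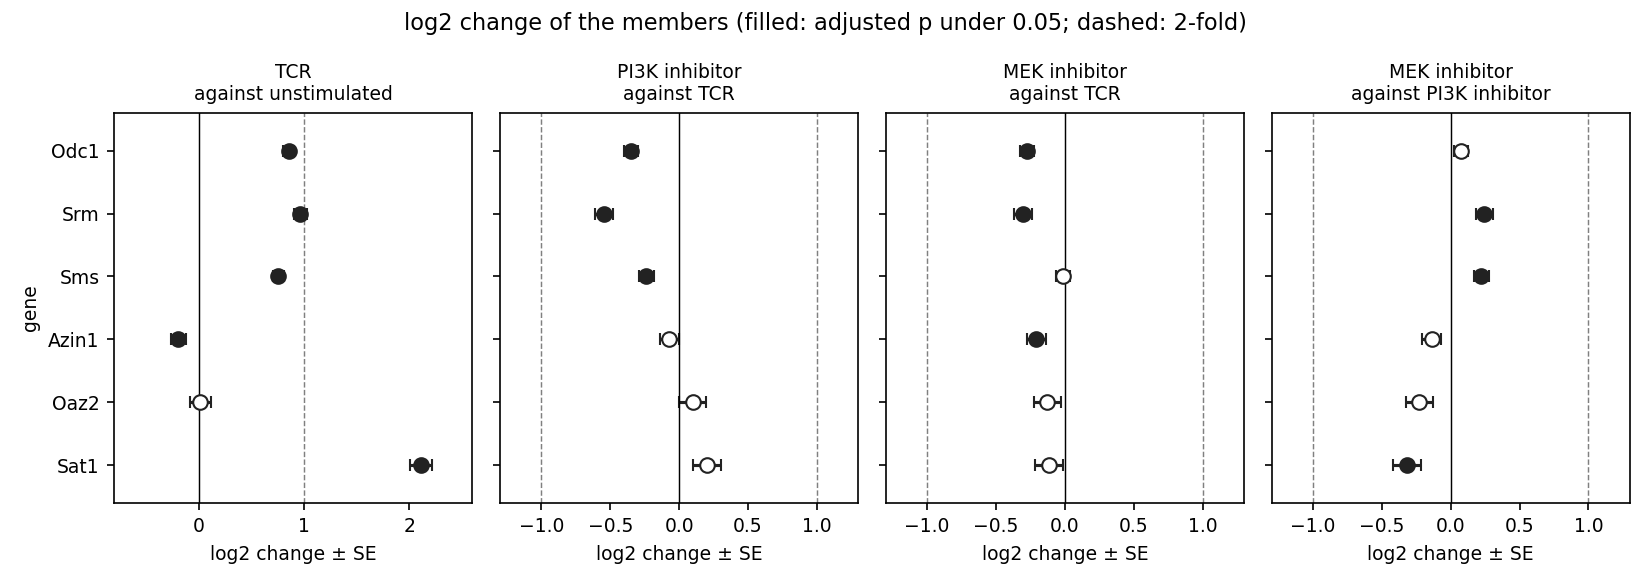
log2 change ± SE (horizontal axis) of the 6 members in 4 comparisons on the deposited scale; filled symbols have an adjusted p under 0.05 and dashed lines mark a 2-fold change. Sat1, at 2.11 after TCR stimulation, is the only member past a dashed line, and Sms is lower with PI3Kdi (-0.24) but not with MEKi (-0.01).

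Ratios between genes within a culture do not depend on a constant scaling of the library. An exact permutation test of 3 against 3 cultures, two-sided, cannot give a p below 0.1, so that no ratio could pass 0.05. In all, 6 ratios were compared in 4 comparisons each (24), of which 16 reached an exact permutation p of 0.1 (0.15 after Benjamini-Hochberg adjustment over the 24). The planned ratios of Odc1 and Azin1 to Oaz1 were replaced by ratios to Oaz2, and those of Srm to Odc1 and of Smox to Sat1 were chosen only once the values were known. The ratio of Odc1 to Sat1, synthesis against removal, was 10.7 ± 1.74 in unstimulated CTL, 4.43 ± 0.107 with TCR, 3.02 ± 0.0656 with PI3Kdi and 3.97 ± 0.382 with MEKi (SD, n = 3). It was 2.396-fold lower with TCR than without stimulation (exact permutation p = 0.1) and 1.47-fold lower again with PI3Kdi than with TCR (exact permutation p = 0.1), with no overlap between these groups, while MEKi and TCR overlapped (exact permutation p = 0.2).

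The ratio of Srm to Sms was 6.24 ± 0.173 in unstimulated CTL and 7.24 ± 0.939 with TCR, where replicate 1 stood apart, and 5.82 ± 0.396 with PI3Kdi and 5.91 ± 0.321 with MEKi (SD, n = 3). It was lower than with TCR by 1.24-fold for PI3Kdi and 1.22-fold for MEKi (exact permutation p = 0.1 each), and the inhibitor groups overlapped (exact permutation p = 0.8). The ratio of Odc1 to Oaz2 was 23.2 ± 1.66, 41.6 ± 4.20, 30.4 ± 2.64 and 37.5 ± 3.19 in unstimulated, TCR, PI3Kdi and MEKi cultures (SD, n = 3). It was 1.79-fold higher with TCR than without (exact permutation p = 0.1), and PI3Kdi lay below TCR without overlap (exact permutation p = 0.1) while MEKi did not (exact permutation p = 0.3). The ratio of Azin1 to Oaz2 was 5.04 ± 0.461, 4.35 ± 0.172, 3.895 ± 0.578 and 4.14 ± 0.462 in the same order (SD, n = 3), with an exact permutation p of 0.1 for TCR against unstimulated and of 0.4 or more for the inhibitor comparisons. The ratio of Srm to Odc1 was 0.634 ± 0.0111, 0.686 ± 0.0405, 0.598 ± 0.0213 and 0.6735 ± 0.00688 in the same order (SD, n = 3). It was 1.145-fold lower with PI3Kdi than with TCR, without overlap (exact permutation p = 0.1). The exact permutation p was also 0.1 for TCR against unstimulated and for MEKi against PI3Kdi, and 0.8 for MEKi against TCR.

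**Figure D4:**
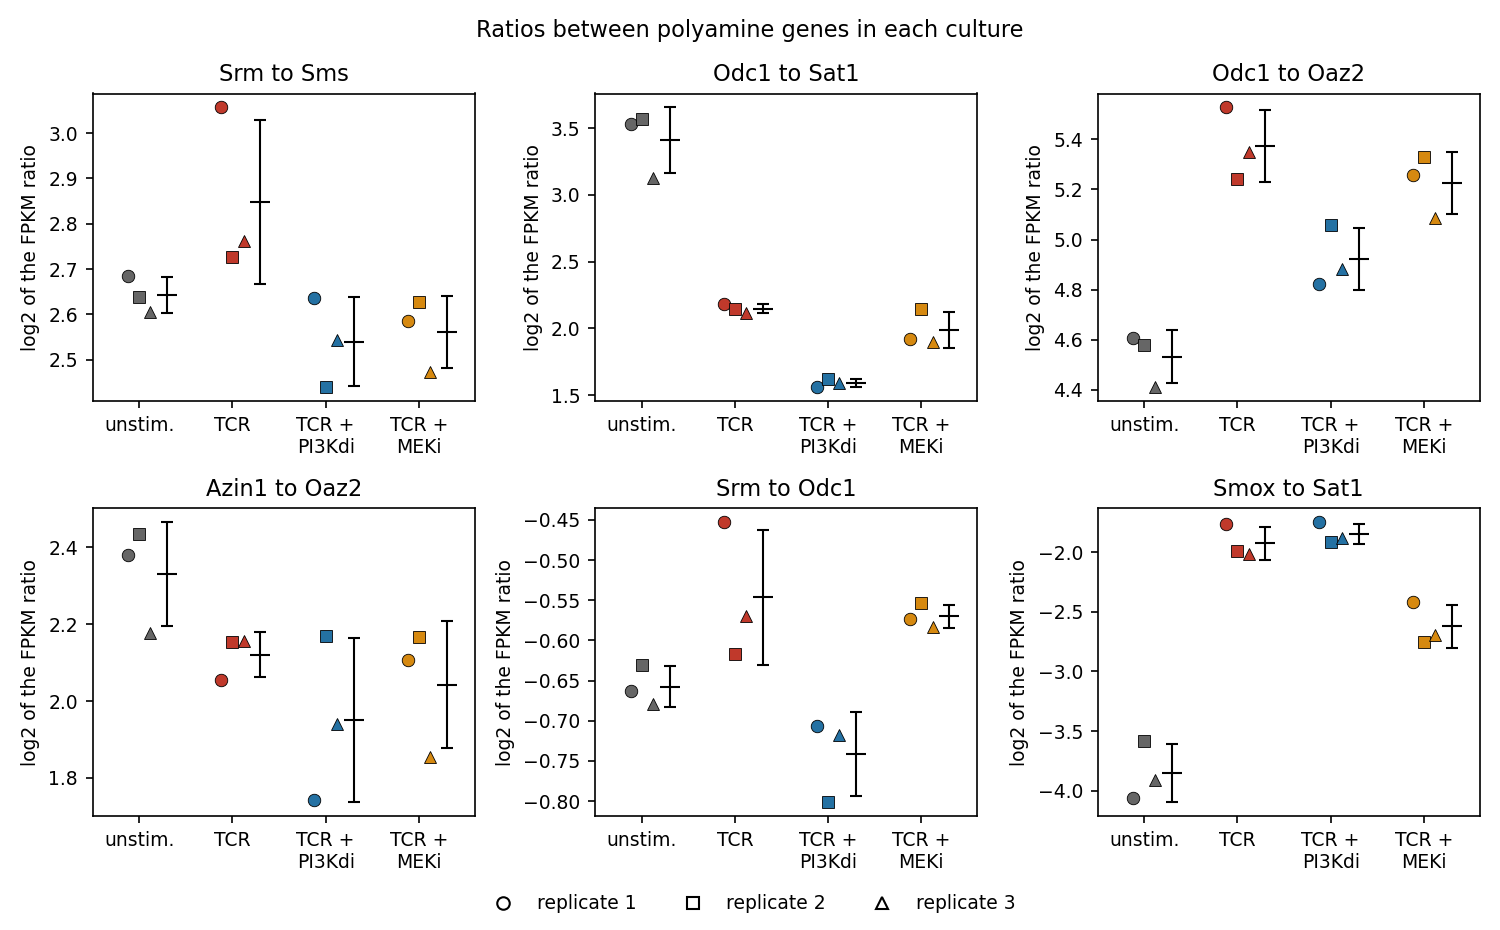
log2 of the FPKM ratio (vertical axis, not from 0) for 6 gene pairs in each of 12 cultures, by group; symbols give the replicate number and bars the mean ± SD (n = 3). The ratio of Odc1 to Sat1 is highest in unstimulated cultures and lowest with PI3Kdi, with mean log2 ratios of 3.41 and 1.59.

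A wider list of 31 genes around these enzymes was also examined, of which 21 had a row. On TCR stimulation 8 were higher, beside 33.6% of all genes, 4 were lower, beside 34.9%, and 9 did not pass the test, with a median log2 change of 0.07. With PI3Kdi against TCR 2 were higher, beside 12.7% of all genes, 8 were lower, beside 12.8%, and 11 did not pass. With MEKi against TCR 4 were higher, beside 18.9% of all genes, 3 were lower, beside 18.2%, and 14 did not pass. The shares higher with TCR and in both directions with MEKi were near those of all genes. Of the 2 measured genes of polyamine catabolism outside the members, Smox changed with TCR and Paox did not pass the test on the deposited scale. Smox, spermine oxidase, which turns spermine back into spermidine, stood at 1.26, 1.61 and 1.86 FPKM in unstimulated CTL and at 29.1, 24.4 and 24.0 FPKM after TCR stimulation. It stood at 35.7, 28.9 and 29.6 FPKM with PI3Kdi and at 17.5, 12.3 and 14.6 FPKM with MEKi. All stimulated cultures lay far above the unstimulated ones, with the MEKi cultures below all TCR and PI3Kdi cultures.

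Smox was 15.6-fold higher with TCR than without (log2 3.96, SE 0.14, limma adjusted p = 4.29e-12). With MEKi it was 1.75-fold lower than with TCR (log2 -0.81, SE 0.14, adjusted p = 0.000548) and 2.13-fold lower than with PI3Kdi (log2 -1.09, SE 0.14, adjusted p = 5.19e-05), and PI3Kdi itself gave 0.28 (SE 0.14, adjusted p = 0.171). The fall from TCR to MEKi passed the test on the TPM scale too (-0.55, limma adjusted p = 0.00286), where Smox was also higher with PI3Kdi than with TCR (0.46, adjusted p = 0.0138). The ratio of Smox to Sat1 was 0.0699 ± 0.012 in unstimulated CTL, 0.264 ± 0.0262 with TCR, 0.278 ± 0.0169 with PI3Kdi and 0.164 ± 0.0209 with MEKi (SD, n = 3), 1.62-fold lower with MEKi than with TCR (exact permutation p = 0.1). Paox, the oxidase of acetylated polyamines, differed by -0.06 on TCR stimulation (SE 0.11, limma adjusted p = 0.681) and by -0.46 on the TPM scale (adjusted p = 0.00336). Of its 100-base stretches 22.7% are shared with Gm19680, and its exons overlap those of Echs1 on the opposite strand by 142 bases.

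Of the 3 measured genes of ornithine and arginine supply and the 3 of polyamine transport, 1 each was higher with MEKi than with PI3Kdi, Slc7a1 and Slc3a2. Of all genes, 14.5% were higher in that comparison. Slc7a1, the cationic amino acid carrier that brings arginine into the cell, rose from 29.8 ± 1.26 FPKM to 56.0 ± 6.92 FPKM with TCR (SD, n = 3; log2 change 0.90, SE 0.09, limma adjusted p = 4.88e-07). It reached 91.0 ± 3.87 FPKM with MEKi (SD, n = 3), above every other culture, with a log2 difference of 0.71 from TCR (SE 0.09, limma adjusted p = 3.65e-05) and 0.89 from PI3Kdi (SE 0.09, adjusted p = 4.66e-06). PI3Kdi cultures overlapped TCR cultures (-0.19, SE 0.09, limma adjusted p = 0.146), a difference that passed without TCR replicate 1 (-0.28, adjusted p = 0.0394). Slc3a2, the heavy chain of several amino acid carriers that has been linked to polyamine export, rose by 1.32 with TCR (SE 0.06, limma adjusted p = 6.71e-11) and fell by 0.39 with PI3Kdi (SE 0.06, adjusted p = 0.00034). With MEKi it differed by 0.01 from TCR (SE 0.06, limma adjusted p = 0.875), but it was higher by 0.28 on the TPM scale (adjusted p = 0.000188) and by 0.16 after quantile normalisation (adjusted p = 0.0146). Atp13a2, the lysosomal polyamine exporter, was low throughout and fell by 0.79 with TCR (SE 0.17, limma adjusted p = 0.000863), from 2.00 ± 0.225 to 1.12 ± 0.195 FPKM (SD, n = 3).

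Spermidine is the donor of hypusine, the amino acid that activates the translation factor eIF5A, and 3 of the 4 genes of that pathway rose with TCR, beside 33.6% of all genes. They were Eif5a itself (0.41, SE 0.06, limma adjusted p = 2.13e-05), deoxyhypusine synthase Dhps (0.72, SE 0.08, adjusted p = 1.3e-06) and deoxyhypusine hydroxylase Dohh (0.46, SE 0.09, adjusted p = 0.000261), while the paralog Eif5a2 fell by 0.72 (SE 0.15, adjusted p = 0.000559). The same 3 genes were lower with PI3Kdi than with TCR, by 0.33, 0.28 and 0.33 on the log2 scale (limma adjusted p = 0.00109, 0.0191 and 0.0129; 12.8% of all genes were lower), and Eif5a2 was higher by 0.57 (adjusted p = 0.0111). The calls of Dhps and Dohh were each lost without TCR replicate 1, PI3Kdi replicate 2 or PI3Kdi replicate 3 (log2 difference as small as -0.21 and -0.25, limma adjusted p up to 0.0918 and 0.0657). Dohh overlapped between PI3Kdi and TCR and lost its call when these groups were fitted alone (limma adjusted p = 0.0512). With MEKi, Dhps was lower than with TCR by -0.39 (SE 0.08, limma adjusted p = 0.0017) and Eif5a2 higher by 0.49 (SE 0.15, adjusted p = 0.0178), while Eif5a (-0.15, adjusted p = 0.0661) and Dohh (-0.20, adjusted p = 0.084) did not pass. That of Dhps was lost on the TPM scale (-0.12, limma adjusted p = 0.166), and that of Eif5a2 without TCR replicate 1 (0.32, adjusted p = 0.0812) or MEKi replicate 3 (0.43, 0.0718). The rise of Eif5a was not seen on the TPM scale, where it was -0.00 (limma adjusted p = 0.982), or after quantile normalisation (0.00, adjusted p = 0.933), nor that of Dohh on the TPM scale (0.05, adjusted p = 0.549). On the TPM scale the falls of Dhps (-0.10, adjusted p = 0.313) and Dohh (-0.15, adjusted p = 0.124) with PI3Kdi did not pass the test either, nor did that of Dhps after quantile normalisation (-0.22, adjusted p = 0.0591). Dohh shares 42.9% of its 100-base stretches with Gm48551, which overlaps it by 972 exon bases on the same strand, and Dhps overlaps Wdr83 by 128 bases on the opposite strand.

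Mtap, which recycles the methylthioadenosine left by both synthases, rose by 0.57 with TCR (SE 0.05, limma adjusted p = 1.53e-07) and fell by 0.31 with PI3Kdi (SE 0.05, adjusted p = 0.000555) and by 0.21 with MEKi (SE 0.05, adjusted p = 0.0054). On the TPM scale the differences from TCR were -0.13 with PI3Kdi (limma adjusted p = 0.0896) and 0.05 with MEKi (adjusted p = 0.494), and after quantile normalisation the difference with MEKi was -0.12 (adjusted p = 0.0872). Between MEKi and PI3Kdi, Mtap differed by 0.10 (SE 0.05, limma adjusted p = 0.163). Of the 5 measured genes of methylthioadenosine salvage, Mtap alone was higher with TCR, beside 33.6% of all genes. Mri1 (-0.26, limma adjusted p = 0.0106) and Apip (-0.27, adjusted p = 0.0249) were lower, beside 34.9%. Enoph1 was also lower with PI3Kdi than with TCR (-0.34, limma adjusted p = 0.00763), and Mri1 was higher with MEKi than with TCR (0.27, adjusted p = 0.0174). Myc stood at 125 ± 1.92 FPKM in unstimulated CTL, 290.4 ± 20.9 with TCR, 223 ± 12.99 with PI3Kdi and 290.3 ± 13.8 with MEKi (SD, n = 3). It rose by 1.22 with TCR (SE 0.06, limma adjusted p = 1.97e-10) and fell by 0.38 with PI3Kdi (SE 0.06, adjusted p = 0.000461). MEKi cultures overlapped TCR cultures at a log2 difference of 0.00 (SE 0.06, adjusted p = 0.992) and were above PI3Kdi cultures by 0.38 (SE 0.06, adjusted p = 0.000308). On the TPM scale Myc was higher with MEKi than with TCR by 0.26 (limma adjusted p = 0.00163), and after quantile normalisation by 0.16 (adjusted p = 0.031).

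**Figure D5:**
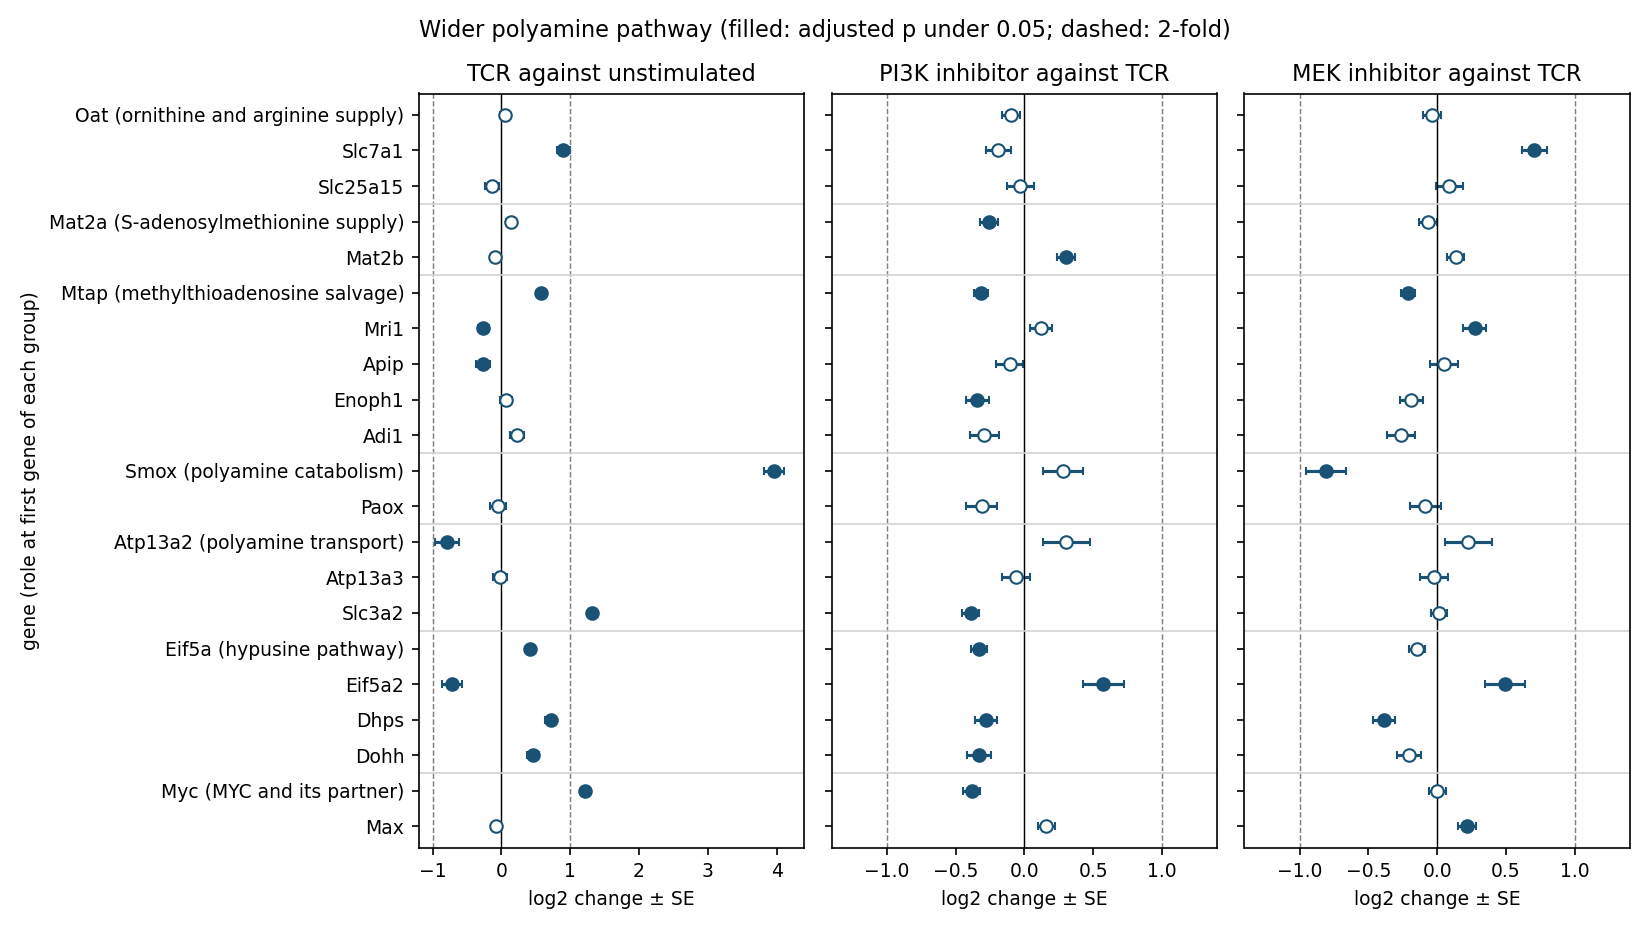
log2 change ± SE (horizontal axis) of 21 genes around the polyamine pathway in 3 comparisons on the deposited scale, grouped by role; filled symbols have an adjusted p under 0.05 and dashed lines mark a 2-fold change. Smox (3.96), Slc3a2 (1.32) and Myc (1.22) lie beyond 2-fold after TCR stimulation, and no gene does so with either inhibitor against TCR.

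For the 4 members with the widest range of group means, the genes whose log2(FPKM + 0.1) followed them most closely over the 12 samples were identified among 9899 genes with a mean FPKM of at least 1. The 12 samples form 4 groups, so that each coefficient rests largely on group means. Odc1 was followed by Ftsj3 (Pearson r = 0.996), Tars (0.994) and Tomm5 (0.991). Ftsj3 acts in ribosome assembly and Tars charges threonine onto its tRNA. Srm was followed by Nop2 (r = 0.993), Rrp9 (0.990) and Tbl3 (0.987), all 3 of them nucleolar factors of ribosomal RNA processing. Sms was followed by Golim4 (r = 0.994), Xpot (0.991) and Nfkbia (0.991), of which Xpot exports tRNA from the nucleus and Nfkbia encodes an inhibitor of NF-κB. Sat1 was followed by Pcyt1a (r = 0.992), Nrp1 (0.992) and Tnip3 (0.991), of which Pcyt1a makes an intermediate of phosphatidylcholine.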

How the data were processed

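RNA sequencing of 12 P14 CTL cultures, 3 per group, was examined through a table of FPKM that the authors deposited for 11022 genes. As described for the study, the authors mapped paired-end reads to mm10 with STAR, assigned them to RefSeq genes with Subread, dropped genes with low counts, applied TMM scaling in edgeR and divided by the summed exon length; all libraries shared 1 sequencing lane. The submitters' notes name STAR 2.4.2a and Subread 1.5.0. Libraries were made with a stranded mRNA kit, but strand use in counting is not given in the sources used here. Columns were assigned by their headers. The members, the marker and wider gene lists and the tests were chosen with earlier results of these data known, so the lists support nothing by themselves.

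A mean per group was fitted to log2(FPKM + 0.1) of all genes with limma 3.58.1 in R 4.3.3 (eBayes with trend, no replicate term), a pseudocount that understates changes of low genes. A gene passed at a Benjamini-Hochberg adjusted p under 0.05 within its comparison, and a 2-fold threshold was also applied. The procedure was tested on simulated data. Ratios were tested by exact permutation in SciPy 1.17.1. The genes named are the 8 members, genes of the wider list, and, for the 4 members with the widest range of group means, the 3 genes with the highest Pearson r. Shared 100-base stretches came from GENCODE M21 transcripts. The labels number replicates 1 to 3 in every group, and 3 mice were used, but that equal numbers mean the same mouse is not stated; p-values measure the spread between these cultures. Once group means had been subtracted, cultures with equal numbers had correlations of 0.239 to 0.451 for PI3Kdi against TCR and 0.122 to 0.182 for MEKi against TCR. The range was 0.137 to 0.149 for MEKi against PI3Kdi and 0.117 to 0.147 for MEKi against unstimulated. It was 0.004 to 0.153 for TCR against unstimulated and -0.06 to 0.114 for PI3Kdi against unstimulated. The main fits and the ratio tests given did not pair the samples. Only the replicate block did, by number and in every comparison. The alternatives changed the pseudocount (1 or 0.01), required a mean FPKM of at least 1, or used the TPM scale, quantile normalisation, a replicate block, the compared groups alone, no trend, no fold threshold, limma treat, and leaving out each culture. The leftover arm of 2 cultures was assumed to vary like the others.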

Additional observations from a re-analysis of the deposited data

Results flagged for a closer look

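Each result given here is a difference between the MEKi and PI3Kdi effects, both taken against the same TCR cultures, with a limma adjusted p under 0.05. Among the members, the effects differed by 0.25 for Srm, by 0.22 for Sms and by -0.32 for Sat1 (log2, MEKi minus PI3Kdi). In the wider list, the largest differences were 0.89 for Slc7a1 and -1.09 for Smox. The others were 0.40 for Slc3a2, 0.38 for Myc, 0.19 for Mat2a, a gene of S-adenosylmethionine supply, and 0.18 for Eif5a. Mat2a was near the threshold (limma adjusted p = 0.0475), its MEKi and PI3Kdi cultures overlapped, and its alternative fits are not given here. The Eif5a call was lost without PI3Kdi replicate 2 or 3 or MEKi replicate 2 or 3 (0.16 to 0.19, limma adjusted p up to 0.117), and that of Sat1 without PI3Kdi replicate 1 or 2 or MEKi replicate 2 (-0.34 to -0.26, adjusted p up to 0.115). Groups of 3 cultures were not searched for single outlying samples.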

How the results depend on the processing

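Adding a replicate block, which pairs cultures by number, changed no call of a member in any comparison. With the block, as without it, 1 member passed both thresholds in each comparison against unstimulated cultures and 0 did in the other comparisons. The counts past both thresholds kept their value in 125 of 132 alternative fits. Without the fold threshold they were 5, 3, 3, 3, 5 and 5 for TCR against unstimulated, PI3Kdi against TCR, MEKi against TCR, MEKi against PI3Kdi, PI3Kdi against unstimulated and MEKi against unstimulated, since this alternative drops a criterion. Leaving out 1 culture gave 1 to 2 members for TCR against unstimulated.

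On the TPM scale, differences changed sign for Oaz2 (-0.39 for TCR, 0.13 for MEKi against TCR, -0.11 for PI3Kdi against unstimulated), Azin1 (0.11 for PI3Kdi and 0.053 for MEKi against TCR), Sms (0.25) and Sat1 (0.15) for MEKi against TCR, Eif5a (-0.0013 for TCR, 0.11 for MEKi against TCR, -0.15 for PI3Kdi against unstimulated), Mtap (0.049), Paox (0.17) and Dohh (0.059) for MEKi against TCR, and Dohh for PI3Kdi against unstimulated (-0.10). After quantile normalisation they did so for Sms (0.049), Sat1 (0.023) and Eif5a (0.011) for MEKi against TCR, and for Eif5a (-0.23) for PI3Kdi against unstimulated. The TPM scale shifts all genes of a library together, whereas quantile normalisation moves genes by unequal amounts. Leaving out 1 culture turned values near 0, within -0.041 to 0.093 for Oaz2 with TCR, -0.16 to 0.0020 for Azin1 with PI3Kdi against TCR, -0.045 to 0.0073 for Sms and -0.17 to 0.0010 for Paox with MEKi against TCR, -0.10 to 0.022 for Paox with TCR, and -0.20 to 0.037 for Atp13a2 with MEKi against PI3Kdi. For Slc3a2 and Myc with MEKi against TCR the ranges were -0.029 to 0.072 and -0.059 to 0.041. The ratios changed sign only in MEKi comparisons, within -0.028 to 0.070 (Srm to Sms against PI3Kdi), -0.14 to 0.016 and -0.012 to 0.20 (Azin1 to Oaz2 against TCR and PI3Kdi) and -0.059 to 0.023 (Srm to Odc1 against TCR). Over all members' differences, 713 alternative values kept direction and side of the threshold, 21 lost the call, 7 gained one and 15 reversed; apart from scaling the cause was not tested.

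The ratios to Oaz1 were not run, because Oaz1 had no row. No read counts or depths are in the table, so precision rests on 3 cultures per group, and small differences of Azin1 and Oaz2 lie near what their spread can resolve. With 3 cultures against 3 the ratio tests could not fall below 0.1, nor below 0.25 when paired.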
